A study of Mus musculus with 14 samples.

Results

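Chemokines and inflammatory cytokines are the secreted proteins by which stromal cells call in and instruct cells of the blood, and many of them are also released by senescent cells. They were examined here as a named list of 39 genes, 5 of them for receptor chains, while the count table holds 30503 genes in all. Members were picked by symbol from the annotation of the expression table, a rule that uses no measured value. The genes were measured by bulk RNA-seq in 14 clones, each raised in culture from 1 tdTomato+ skeletal cell out of the femoral bone marrow of mice that had been pulsed with tamoxifen at P21. The Fgfr3-WT group had 5 clones, taken at P23 (Fgfr3-creER; R26R(tdTomato/+)). The Fgfr3-p53 cKO clones came at P28 (5 clones) or from 4-month-old mice (P4M, 4 clones), with both cKO groups carrying Fgfr3-creER, Trp53fl/fl and R26R(tdTomato/+). All groups shared the tamoxifen pulse, the creER transgene and the reporter allele, and creER acts only in cells that expressed Fgfr3 at the pulse. Clones had been passaged 8 times in the Fgfr3-WT and P28 groups and 6 to 8 times in the P4M group. The paper gives a joint range of passages for the cKO clones of both ages. It also reports that wild-type clones took significantly longer to reach the last passage than cKO clones isolated at the earlier age. Equal passage is therefore not equal time in culture, and the part of time in culture in the differences below was not tested. Each library is 1 clone in culture, so the other cells of the marrow were not sampled. Whether the clones of a group came from separate mice is not stated, so p values measure the spread between clones.

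Chemokines act on receptors of leukocytes and are grouped by the spacing of their first cysteines into CXC, CC and CX3C families. The cytokines of the gp130 family (IL-6, IL-11, LIF and cardiotrophin-like cytokine) signal through the shared chain gp130 together with a ligand-specific chain and activate STAT3, whereas IL-1 family cytokines signal through MyD88 to NF-kappa-B. In bone, stromal cells and osteoblasts make several of these factors, which act on osteoclast precursors, blood stem cells and leukocytes, and p53 is known to restrain NF-kappa-B in several cell types.

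Of the 39 genes, 22 had enough counts to be tested with the quasi-likelihood F-test of edgeR, fitted to all 17358 genes with enough counts in all 14 clones, and adjusted p values below refer to this test over all of these genes at an FDR of 0.05. Levels are given as CPM, counts scaled to the TMM-adjusted library total, for replicates 1 to 5 (P4M, 1 to 4) in this order. Total counts lay between 25688946 and 52857424 per clone, so that 3 counts, the limit that a count of 0 allows, stand for 0.0564 to 0.121 CPM and cover counting error only. Trp53, the targeted gene, was lower in both cKO groups, at a log2 fold change of -4.48 (adjusted p = 2.14e-09) in the P28 and -4.71 (adjusted p = 4.62e-09) in the P4M clones. Every Fgfr3-WT library carries 1 library submission number in the labels and every cKO library another, so genotype and submission cannot be told apart, and only the comparison of P4M with P28 clones lies within a submission. Prrx1, a marker of limb stromal cells, was present in every clone (4.53 to 789.9 CPM), but Col1a2, a collagen gene of stromal cells and osteoblasts, was below 1 CPM in 4 of the 5 Fgfr3-WT clones and at 4354 CPM in Fgfr3-WT replicate 5. Among 10 stromal genes, the P28 clones had 2 higher and 1 lower, where 38.9% of all genes tested were called against the Fgfr3-WT clones. The P4M clones had 3 higher and 2 lower, where 45.9% of all genes tested were called. Of 12 myeloid markers, 7 stayed below 1 CPM in every clone, among them Ptprc (at most 0.154 CPM) and Adgre1 (at most 0.0860 CPM). The summed level of these 12 markers was 17.7 to 158.3 CPM in the Fgfr3-WT, 13.1 to 26.2 CPM in the P28 and 15.6 to 26.7 CPM in the P4M clones, and of the 5 tested Cd68 and Lyz2 were lower in both cKO groups, Csf1r was higher in the P28 and Fcer1g in the P4M clones. The lymphoid markers summed to at most 0.119 CPM, the erythroid markers to at most 0.228 CPM, and of the 5 endothelial markers Kdr alone reached 1 CPM and was higher in both cKO groups.

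The stretches of 250 bases before the RefSeq starts (GRCm38.p6, the assembly of mm10) are shown for some genes with binding motifs of inflammatory factors and for a gene with none. The genes shown were picked with their levels in these clones known, and whether the motifs bear on those levels was not tested. They are Cxcl10 (chr5:92348890-92349139, minus strand) and its neighbour Cxcl9 (chr5:92328080-92328329, minus strand), both ligands of CXCR3, the neutrophil chemokines Cxcl1 (chr5:90890995-90891244, plus strand) and Cxcl2 (chr5:90903649-90903898, plus strand), and the 2 starts of Il1rl1, the receptor of IL-33 (chr1:40429320-40429569 and chr1:40439379-40439628, plus strand). Each is written 5′ to 3′ on the strand of the gene, and capitals mark the matches on either strand to a kappa-B motif (GGNNNTTCC), an AP-1 motif (TGANTCA), an interferon response element (GAAANNGAA) or a TATA box (TATAAA).
Cxcl10: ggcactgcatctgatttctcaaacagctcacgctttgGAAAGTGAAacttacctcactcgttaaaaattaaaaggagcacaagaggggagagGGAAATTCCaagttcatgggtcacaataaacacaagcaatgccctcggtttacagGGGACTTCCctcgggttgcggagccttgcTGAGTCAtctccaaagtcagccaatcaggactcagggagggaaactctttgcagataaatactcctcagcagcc
Cxcl9: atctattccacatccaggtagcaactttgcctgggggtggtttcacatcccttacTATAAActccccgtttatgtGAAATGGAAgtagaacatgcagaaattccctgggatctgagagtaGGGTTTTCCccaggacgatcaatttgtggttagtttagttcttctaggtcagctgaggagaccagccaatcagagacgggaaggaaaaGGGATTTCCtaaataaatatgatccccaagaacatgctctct
Cxcl1: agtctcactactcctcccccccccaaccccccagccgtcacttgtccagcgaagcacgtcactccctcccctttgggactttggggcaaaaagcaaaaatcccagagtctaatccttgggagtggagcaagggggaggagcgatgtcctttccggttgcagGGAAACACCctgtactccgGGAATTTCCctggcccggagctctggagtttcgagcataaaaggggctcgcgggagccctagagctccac
Cxcl2: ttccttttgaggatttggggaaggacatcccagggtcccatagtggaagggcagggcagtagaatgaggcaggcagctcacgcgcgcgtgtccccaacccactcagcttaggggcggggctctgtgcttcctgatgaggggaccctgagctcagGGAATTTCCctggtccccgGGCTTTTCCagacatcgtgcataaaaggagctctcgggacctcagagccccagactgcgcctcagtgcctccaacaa
Il1rl1, first start: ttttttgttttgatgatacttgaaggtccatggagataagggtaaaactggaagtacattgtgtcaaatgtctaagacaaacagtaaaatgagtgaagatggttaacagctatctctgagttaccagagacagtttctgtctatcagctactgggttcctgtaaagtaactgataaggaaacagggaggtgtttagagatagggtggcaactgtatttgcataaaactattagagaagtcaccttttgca
Il1rl1, second start: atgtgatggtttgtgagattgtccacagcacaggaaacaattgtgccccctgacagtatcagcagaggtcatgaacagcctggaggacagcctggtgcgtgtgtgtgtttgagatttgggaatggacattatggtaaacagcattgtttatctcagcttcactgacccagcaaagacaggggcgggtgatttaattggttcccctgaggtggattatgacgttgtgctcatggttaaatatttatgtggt

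In the Cxcl10 window, kappa-B motifs lay 158 to 150 and 103 to 95 bases before the start, an AP-1 motif 74 to 68 bases and an interferon response element 213 to 205 bases before it. Cxcl9 held 2 kappa-B motifs and an interferon response element of its own, at 175 to 167 bases. In Cxcl1 the sequence GGAATTTCC lay 70 to 62 bases before the start, and in Cxcl2 the same letters lay at 96 to 88 bases. Neither Il1rl1 window held any of the 4 motifs. A window was found for 28 of the 39 genes, with 36 windows in all because some genes have several starts, and for Ccl2, Ccl4, Ccl5, Ccl7, Ccl11, Cxcl5, Cxcl11, Cxcl16, Clcf1, Il15 and Tslp none is printed. A kappa-B motif was in 33.3% of the 36 windows and in 15.7% of the 32851 promoters of the table, an AP-1 motif in 19.4% and 6.75%, an interferon response element in 11.1% and 7.13%, and a TATA box in 36.1% and 12.4%. These matches are a description of the letters in the windows, and no binding was measured.

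**Figure D1:**
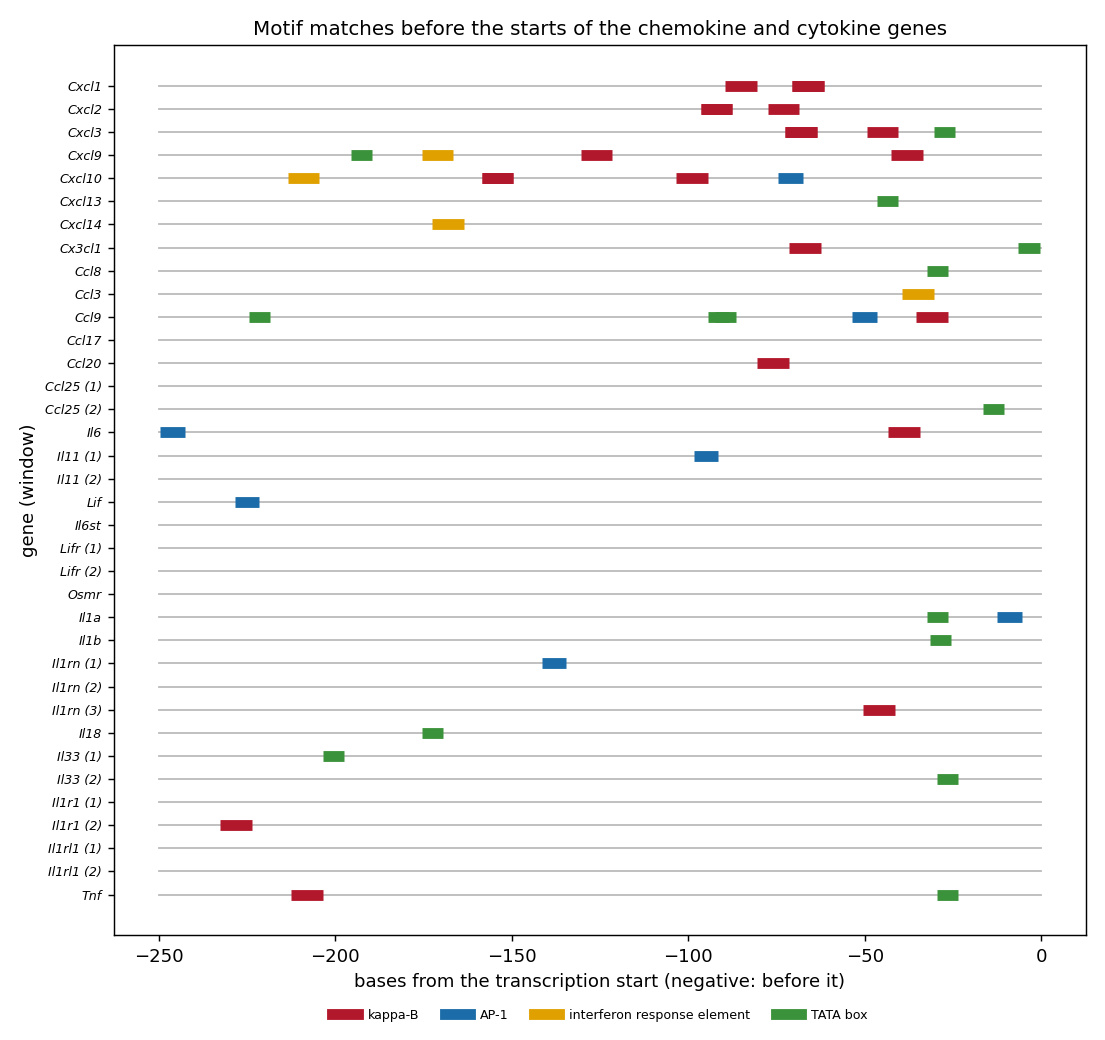
Positions of the motif matches (colours) along the 250 bases before each RefSeq start, in bases from the start, with a line for each of the 36 windows of 28 genes. The interferon response elements, of which 4 windows hold one, include those of Cxcl9 and Cxcl10, and the 2 windows of Il1rl1 are empty.

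Against the Fgfr3-WT clones, the P28 clones had higher levels of Cxcl10, Cxcl16, Ccl2, Ccl5, Il6st, Il1rn, Il33 and Il1rl1 and a lower level of Cx3cl1. These were 8 genes higher and 1 lower of the 22 tested, or 40.9%, where 38.9% of all 17358 genes tested were called, 19.2% higher and 19.7% lower. The median log2 fold change of the 22 genes was 0.93, beside -0.02 over all genes tested. In the P4M clones, Cxcl10, Ccl2, Il11, Lifr, Il33 and Il1rl1 were higher and Cx3cl1, Ccl9, Clcf1, Il18, Il1r1 and Il15 were lower than in the Fgfr3-WT clones. These 6 higher and 6 lower genes made up 54.5% of the 22, where 45.9% of all genes were called, 22.3% higher and 23.6% lower, and the medians were -0.15 and -0.06. Both comparisons use the same 5 Fgfr3-WT clones and are not independent. The 22 genes passed a filter on low counts, through whichever group held them, and so do not stand for all 39. The levels of the 2 cKO groups did not overlap those of the Fgfr3-WT clones for Cxcl10, Ccl2, Ccl5 and Il1rl1 (P28) and for Cxcl10, Lifr and Il18 (P4M), where 24.5% and 33.6% of all genes tested did not overlap. On log2(TPM + 1), a scale that compresses low values, limma kept several calls at smaller differences. For P28 these were Cxcl10 (1.66), Cxcl16 (1.20), Ccl2 (3.29), Ccl5 (2.57), Il1rn (1.65) and Il1rl1 (3.54). For P4M they were Ccl2 (2.11), Ccl9 (-2.56) and Il15 (-1.20). Also kept were the P28 call of Il6st, at a larger difference (1.22), and the P4M calls of Lifr, Cx3cl1, Clcf1 and Il18.

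**Figure D2:**
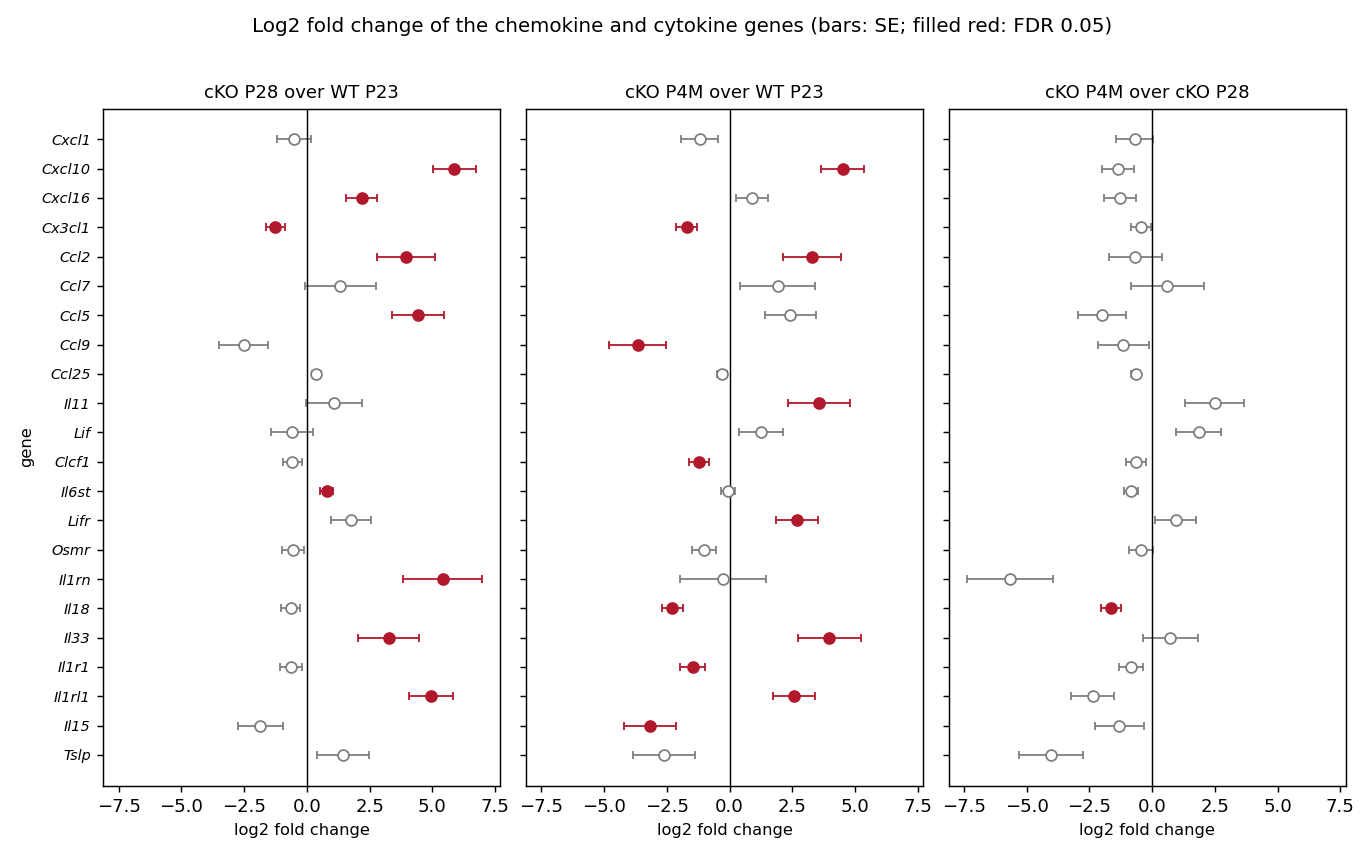
Log2 fold change of the 22 tested genes for P28 over Fgfr3-WT, P4M over Fgfr3-WT and P4M over P28 clones, with bars for the SE and filled red points for genes past an FDR of 0.05. Cxcl10 lies farthest to the right among the called genes of the first 2 panels, and Il18 is the only filled point of the third.

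Among the CXCR3 ligands, Cxcl10 (ENSMUSG00000034855, chr5:92346638-92348889, minus strand), which draws activated T cells and NK cells, was nearly silent in the Fgfr3-WT clones and detected in every cKO clone. It had 0, 0.0383, 0, 0.0285 and 0.0396 CPM in the Fgfr3-WT clones, which is 3 counts in all 5 libraries together. The P28 clones had 0.581, 0.789, 3.58, 0.625 and 1.56 CPM and the P4M clones 1.02, 0.319, 0.652 and 0.226 CPM. Every cKO clone thus lay above every Fgfr3-WT clone, and P28 replicate 3 was the highest. The log2 fold change was 5.88 ± 0.84 (SE, with adjusted p = 0.000235) in the P28 and 4.51 ± 0.86 (SE, with adjusted p = 0.00105) in the P4M clones, and the P28 value was 5.18 without P28 replicate 3. As a ratio of summed counts per scaled library, with a 95% counting interval, the P28 clones held 69.1 times (23.4 to 336.9) and the P4M clones 25.5 times (8.49 to 125.7) the Fgfr3-WT level. The P4M call was lost on log2(TPM + 1) with limma (adjusted p = 0.0539), a scale that compresses such low values. Of the exon bases of Cxcl10, 5.91% are shared with Art3 on the other strand, and the libraries do not mark strand. In bulk libraries, fewer cells that express a gene and less RNA per cell cannot be told apart. The other CXCR3 ligands stayed under the filter: Cxcl9 had 7 counts in the P28, 2 in the P4M and 0 in the Fgfr3-WT clones, and Cxcl11 had none in any clone. Cxcr3, their receptor, was at most 0.0455 CPM.

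The neutrophil chemokines, which act on CXCR2, gave no call against the Fgfr3-WT clones when all clones were fitted. Cxcl1 (GRO-alpha; ENSMUSG00000029380, chr5:90891241-90893115, plus strand), whose window holds 2 kappa-B matches, was 0.489 to 5.47 CPM in the Fgfr3-WT, 0.795 to 2.27 in the P28 and 0.254 to 2.15 in the P4M clones. The ranges of the 3 groups overlapped, and the log2 fold changes were -0.50 ± 0.68 (SE, with adjusted p = 0.591) and -1.19 ± 0.74 (SE, with adjusted p = 0.205). Without P4M replicate 3, the highest of its group, the P4M value was -2.15 and passed (adjusted p = 0.0388). Cxcl2, Cxcl3 and Cxcl5, of the same family, stayed under the filter with at most 0.163, 0.0430 and 0.268 CPM in any clone. The windows of Cxcl9 and Cxcl2 hold kappa-B matches as the Cxcl10 window does, and whether such matches bear on the levels was not tested.

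Of the membrane-bound chemokines, Cxcl16 was higher in the P28 clones and Cx3cl1 was lower in both cKO groups. Cxcl16 (ENSMUSG00000018920, chr11:70453983-70459984, minus strand), the ligand of CXCR6 and a scavenger receptor, had 0.489, 1.22, 0.202, 0.142 and 0.119 CPM in the Fgfr3-WT clones. It reached 2.45, 1.77, 2.31, 2.28 and 1.13 CPM in the P28 and 1.57, 0.728, 0.435 and 0.526 CPM in the P4M clones. Only Fgfr3-WT replicate 2, at 1.22 CPM, exceeded a P28 clone, and the P4M clones lay within the span of the other groups. Its log2 fold change was 2.19 ± 0.61 (SE, with adjusted p = 0.0125) in the P28 and 0.90 ± 0.63 (SE, with adjusted p = 0.257) in the P4M clones. Of the exon bases of Cxcl16, 18.3% are shared with Zmynd15 on the opposite strand. Without Fgfr3-WT replicate 2 the P28 value was 3.04 (adjusted p = 0.00136) and the P4M difference passed the threshold (1.75, adjusted p = 0.0202).

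Cx3cl1 (ENSMUSG00000031778, chr8:94772009-94782427, plus strand), or fractalkine, which tethers cells that carry CX3CR1, had the highest median per length of the chemokines in the Fgfr3-WT clones (32.9 TPM). It stood at 21.9, 153, 102, 85.3 and 68.5 CPM there, with replicate 1 well below the other 4. It was 28.8, 28.8, 34.5, 54.4 and 32.2 CPM in the P28 and 33.9, 18.9, 26.7 and 25.7 CPM in the P4M clones. All cKO clones lay below Fgfr3-WT replicates 2 to 5, and the groups overlapped through Fgfr3-WT replicate 1 alone. Its level fell by 1.27 on the log2 scale in the P28 clones (SE 0.38 and adjusted p = 0.0187) and by 1.71 in the P4M clones (SE 0.42 and adjusted p = 0.00517). The P28 call was lost without Fgfr3-WT replicate 2 (-0.96, adjusted p = 0.0542) and with limma on log2(TPM + 1) (-0.74, adjusted p = 0.130). Cx3cr1, its receptor, was at most 0.115 CPM. Cxcl13, which guides B cells, had no count in any clone. Cxcl14, a chemokine of resting tissues, was under the filter but stood at 34.1 CPM in P28 replicate 4, at 1.41 CPM in P28 replicate 5 and at 1.09 CPM in P4M replicate 3, and at or below 0.0792 CPM in the other 11 clones.

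Of the monocyte chemokines encoded side by side on chromosome 11, Ccl2 was higher in both cKO groups and Ccl7 spread too widely to be called. Ccl2 (ENSMUSG00000035385, chr11:82035571-82037453, plus strand), the main ligand of CCR2 on monocytes, had 0, 0.115, 0.445, 0 and 1.31 CPM in the Fgfr3-WT clones. The level was 2.77, 2.22, 8.41, 7.49 and 7.38 CPM in the P28 and 0.969, 1.02, 10.1 and 2.12 CPM in the P4M clones. Every P28 clone exceeded every Fgfr3-WT clone, whereas P4M replicates 1 and 2 lay below Fgfr3-WT replicate 5. This was a log2 fold change of 3.94 ± 1.15 (SE, with adjusted p = 0.0158) in the P28 clones, and 5.39 without Fgfr3-WT replicate 5. For the P4M clones it was 3.27 ± 1.15 (SE, with adjusted p = 0.0324), and it was 1.91 (adjusted p = 0.176) without P4M replicate 3 and 4.73 without Fgfr3-WT replicate 5. That call was also lost without Fgfr3-WT replicate 2 (adjusted p = 0.0672) or 3 (adjusted p = 0.0529) and when the third group was kept out of the fit (adjusted p = 0.0761).

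Ccl7 (ENSMUSG00000035373, chr11:82045712-82047525, plus strand), a second ligand of CCR2, followed the same clones. It had 0, 0.115, 1.58, 0 and 6.97 CPM in the Fgfr3-WT, 1.72, 1.53, 5.49, 6.67 and 6.17 in the P28 and 0.438, 0.683, 23.1 and 2.05 in the P4M clones. Fgfr3-WT replicate 5 and P4M replicate 3 were the highest of their groups for both genes. The log2 fold changes of Ccl7 were 1.32 (adjusted p = 0.487) in the P28 and 1.93 (adjusted p = 0.309) in the P4M clones, and the latter turned to -0.69 (adjusted p = 0.737) without P4M replicate 3. Ccl8 and Ccl11 (eotaxin, which draws eosinophils), of the same cluster of genes, stayed under the filter, with at most 0.0376 CPM for Ccl8 and no count for Ccl11. Ccr2 was at most 0.0326 CPM.

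Among the CC chemokines that draw T cells and macrophages, Ccl5 was higher in the P28 and Ccl9 was lower in the P4M clones. Ccl5 (ENSMUSG00000035042, chr11:83525778-83530518, minus strand), or RANTES, which draws T cells and monocytes, had 0, 0.0765, 0.202, 0.199 and 0.0792 CPM in the Fgfr3-WT clones. It was 1.98, 0.669, 8.57, 0.302 and 0.820 CPM in the P28 and 0.646, 0.478, 1.15 and 0.188 CPM in the P4M clones. P28 replicate 3 was over 4 times as high as any other clone, and the P28 group still lay above the Fgfr3-WT group without overlap. In the edgeR fit, the log2 fold change was 4.43 ± 1.02 (SE, with adjusted p = 0.00450) in the P28 and 2.43 ± 1.01 (SE, with adjusted p = 0.0647) in the P4M clones, and the P28 value was 3.02 (adjusted p = 0.0104) without P28 replicate 3. The P4M value passed the threshold with DESeq2 (adjusted p = 0.0240) and when P28 replicate 3 or 4, which share the estimate of the spread, was left out.

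Ccl9 (ENSMUSG00000019122, chr11:83572919-83578636, minus strand), a mouse ligand of CCR1 known for its action on osteoclast precursors, had 0.586, 12.5, 22.3, 35.7 and 11.8 CPM in the Fgfr3-WT clones. It was 1.31, 1.67, 2.41, 4.07 and 5.05 CPM in the P28 and 0.300, 0.0683, 4.01 and 0.827 CPM in the P4M clones. Fgfr3-WT replicates 2 to 5 exceeded all 9 cKO clones, and replicate 1 was lower than all 5 P28 clones. The log2 fold change was -3.66 ± 1.13 (SE, with adjusted p = 0.0180) in the P4M clones, and -2.51 ± 0.98 (SE, with adjusted p = 0.0571) in the P28 clones, where leaving out Fgfr3-WT replicate 1 brought the adjusted p to 0.0187 DESeq2 to 0.0124 and the compared groups alone to 0.0341. The P28 difference also passed without P4M replicate 2 or 3. The P4M call was lost without P4M replicate 1 (adjusted p = 0.0506) or 4 (adjusted p = 0.0515), and without P4M replicate 3 the value was -5.35. The Fgfr3-WT clone with the most Ccl9, replicate 4, also had the most Cd68 (54.3 CPM) and Lyz2 (90.6 CPM), 2 genes of macrophage lysosomes. Over the 12 myeloid markers, Cd14 (12.9 CPM), Aif1 (0.285 CPM) and Ptprc (0.0285 CPM) were also highest there among the Fgfr3-WT clones, Csf1r, Fcer1g and Itgam were not, and Tyrobp, C1qa, C1qb and Adgre1 had no count in any Fgfr3-WT clone. The part of myeloid transcripts in the Ccl9 difference was not tested. Ccl3 and Ccl4, the macrophage inflammatory proteins, stayed at or below 0.0765 and 0.0792 CPM.

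Of the other CC chemokines, Ccl25, the CCR9 ligand of thymus and gut, varied least among the clones of each group. It was 3.84 to 5.64 CPM in the Fgfr3-WT, 5.18 to 7.78 in the P28 and 4.05 to 4.36 in the P4M clones, with log2 fold changes of 0.37 (adjusted p = 0.123) and -0.29 (adjusted p = 0.224). The P28 difference passed with DESeq2 (adjusted p = 0.0397) and with limma on log2(TPM + 1) (0.80, adjusted p = 0.00298). Ccl17 (a CCR4 ligand) and Ccl20 (a CCR6 ligand) stayed under the filter, at most 0.119 and 0.0809 CPM.

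**Figure D3:**
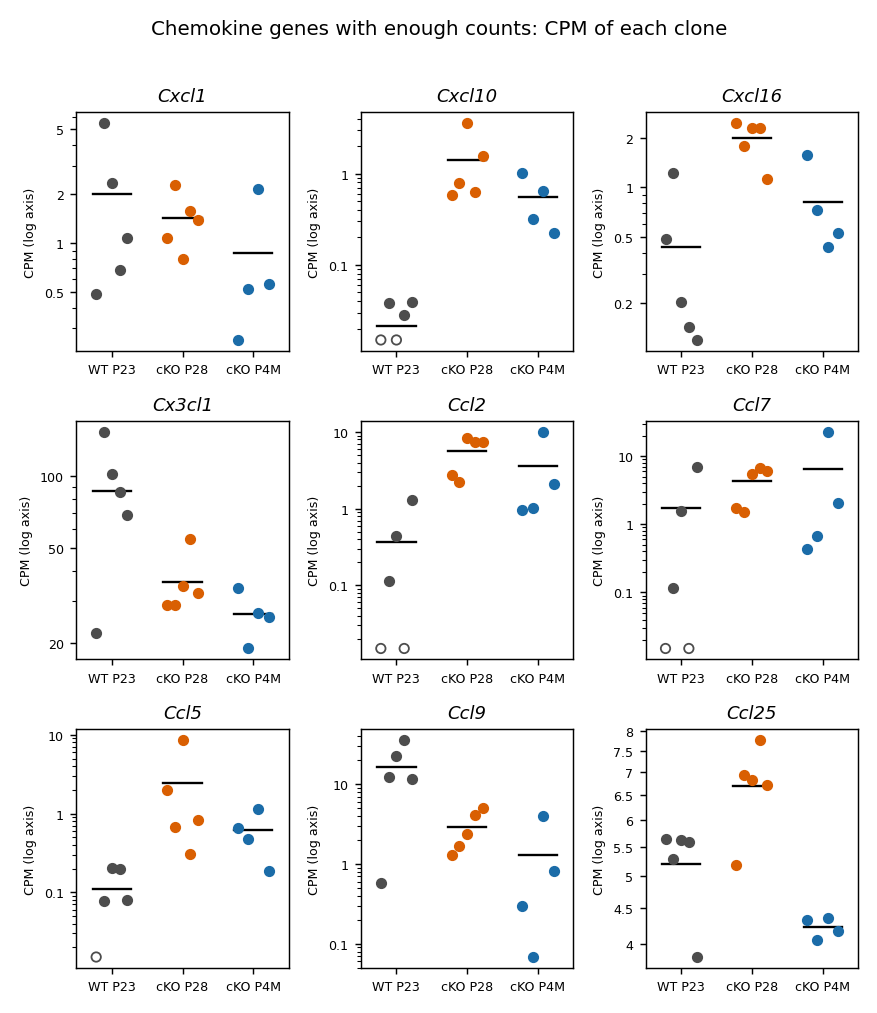
CPM of each clone (points, log axis) and group mean (line) for the 9 chemokine genes with enough counts, in Fgfr3-WT (grey), P28 (orange) and P4M (blue) clones. Open points mark clones with a count of 0, drawn at the bottom; for Cxcl10 all 9 cKO clones lie above all 5 Fgfr3-WT clones, and for Cx3cl1 and Ccl9 Fgfr3-WT replicate 1, the first point of its group, lies apart from the other 4.

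The gp130 cytokines moved in different directions. Il11 (ENSMUSG00000004371, chr7:4772373-4782859, minus strand), a stromal cytokine that acts on osteoclasts and fibroblasts, had 1.76, 0.344, 0.445, 0.114 and 0.435 CPM in the Fgfr3-WT clones. It was 0.172, 0.215, 0.537, 3.26 and 2.41 CPM in the P28 and 4.38, 0.614, 0.514 and 24.2 CPM in the P4M clones. P4M replicates 1 and 4 exceeded every clone of the other groups, and P4M replicates 2 and 3 lay within them. Its log2 fold change was 3.57 ± 1.24 (SE, with adjusted p = 0.0308) in the P4M and 1.08 ± 1.13 (SE, with adjusted p = 0.473) in the P28 clones. Without Fgfr3-WT replicate 1 the P4M value was 4.45. Without P4M replicate 4 it was 1.57 (adjusted p = 0.267), and the call was also lost without Fgfr3-WT replicate 2, 3, 4 or 5 (adjusted p = 0.0643, 0.0602, 0.0613 and 0.0589) and with limma on log2(TPM + 1) (1.45, adjusted p = 0.0951).

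Clcf1 (ENSMUSG00000040663, chr19:4214238-4223490, plus strand), which acts on the ciliary neurotrophic factor receptor, was lower in the P4M clones. It had 84.0, 40.1, 27.7, 43.6 and 30.9 CPM in the Fgfr3-WT clones. The P28 clones had 37.0, 35.4, 37.5, 23.8 and 17.3 CPM and the P4M clones 19.7, 10.9, 12.4 and 35.2 CPM. P4M replicates 1 to 3 lay below every Fgfr3-WT clone, and P4M replicate 4 lay among them. This was a log2 fold change of -1.21 ± 0.41 (SE, with adjusted p = 0.0269) in the P4M and -0.58 ± 0.37 (SE, with adjusted p = 0.233) in the P28 clones. The P4M call was lost without Fgfr3-WT replicate 1 or P4M replicates 1, 2 or 3, with adjusted p values of 0.0546 to 0.0796. An annotated gene on the same strand shares 8.17% of the exon bases of Clcf1.

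Lif, a factor of stem cells and bone that signals through the chain encoded by Lifr, was 0.0854 to 11.6 CPM in the Fgfr3-WT, 1.20 to 6.50 in the P28 and 7.22 to 13.3 in the P4M clones. All 4 P4M clones exceeded all 5 P28 clones, but the log2 fold changes of -0.59 (adjusted p = 0.609) for P28 and 1.27 (adjusted p = 0.256) for P4M against Fgfr3-WT clones and of 1.86 (adjusted p = 0.208) between the cKO groups did not pass. Il6, the best-known inflammatory member of the family, was under the filter, at 0.0285 to 0.383 CPM in the Fgfr3-WT, 0.0199 to 0.0769 in the P28 and 0.0455 to 0.296 in the P4M clones.

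Of the receptor chains of this family, Il6st rose in the P28 and Lifr in the P4M clones. Il6st (ENSMUSG00000021756, chr13:112464070-112510086, plus strand), which encodes gp130, had 167, 259, 317, 181 and 215 CPM in the Fgfr3-WT clones. It was 558, 339.9, 560.3, 265 and 235 CPM in the P28 and 227, 188, 218 and 250.1 CPM in the P4M clones. P28 replicates 1 to 3 exceeded every other clone, and P28 replicates 4 and 5 lay within the Fgfr3-WT range. In the edgeR fit, the log2 fold change was 0.78 ± 0.26 (SE, with adjusted p = 0.0293) in the P28 and -0.04 ± 0.27 (SE, with adjusted p = 0.910) in the P4M clones. This P28 call was lost without Fgfr3-WT replicates 1, 4 or 5 or P28 replicates 1 or 3 (adjusted p = 0.0530 to 0.0938) and with only the groups compared (adjusted p = 0.0691), whereas limma on log2(TPM + 1) gave 1.22 (adjusted p = 0.00226).

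Lifr (ENSMUSG00000054263, chr15:7090614-7197489, plus strand), the chain that binds LIF and related cytokines, had 8.86, 27.5, 16.5, 10.4 and 96.6 CPM in the Fgfr3-WT clones. It was 29.5, 46.4, 22.7, 277 and 164 CPM in the P28 and 165, 325, 124 and 211 CPM in the P4M clones. All 4 P4M clones exceeded all 5 Fgfr3-WT clones, and P28 replicates 4 and 5 stood with them. The log2 fold change was 2.69 ± 0.84 (SE, with adjusted p = 0.0190) in the P4M and 1.76 ± 0.79 (SE, with adjusted p = 0.0942) in the P28 clones. Without Fgfr3-WT replicate 5, the highest of its group, the P4M value was 3.70 and the P28 value 2.77 (adjusted p = 0.0115), and DESeq2 also called the P28 difference (adjusted p = 0.0365). Osmr, the chain for oncostatin M, was 26.1 to 190.0 CPM in the Fgfr3-WT, 57.5 to 111 in the P28 and 44.0 to 68.7 in the P4M clones, with log2 fold changes of -0.56 (adjusted p = 0.341) and -1.02 (adjusted p = 0.102). The P4M difference of Osmr passed without Fgfr3-WT replicate 1 (-1.28, adjusted p = 0.0146) or 4 (-1.24, adjusted p = 0.0413).

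In the IL-1 family, the receptor of IL-33 was higher in both cKO groups. Il1rl1 (ENSMUSG00000026069, chr1:40429570-40465415, plus strand) encodes ST2, in a membrane and a soluble form. It had 1.73, 1.57, 0.688, 0.911 and 3.09 CPM in the Fgfr3-WT clones and 28.7, 61.6, 83.3, 50.0 and 20.2 CPM in the P28 clones. The P4M clones had 3.02, 0.455, 25.9 and 8.36 CPM. All P28 clones were at least 6 times as high as the highest Fgfr3-WT clone, whereas P4M replicates 1 and 2 lay within or below the Fgfr3-WT range. Its log2 fold change was 4.93 ± 0.89 (SE, with adjusted p = 0.000977) in the P28 clones, a 30.6-fold difference, and 2.57 ± 0.83 (SE, with adjusted p = 0.0221) in the P4M clones. The P4M value was 1.32 (adjusted p = 0.160) without P4M replicate 3, and its call was lost with only the groups compared (adjusted p = 0.0528) and with limma on log2(TPM + 1) (0.87, adjusted p = 0.259). Neither window before its starts, printed above, holds a kappa-B, AP-1 or interferon motif, and whether motifs bear on its level was not tested.

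Il33 (ENSMUSG00000024810, chr19:29925114-29960718, plus strand), the nuclear alarmin that ST2 binds, had 0.326, 0.153, 0.0809, 0.0569 and 0.198 CPM in the Fgfr3-WT clones. It was 0.796, 5.21, 0.974, 0.161 and 0.769 CPM in the P28 and 0.369, 0.137, 9.26 and 0.620 CPM in the P4M clones. In each cKO group 1 clone stood far above the rest, P28 replicate 2 and P4M replicate 3, and in each the lowest clone lay within the Fgfr3-WT range. This was a log2 fold change of 3.25 ± 1.20 (SE, with adjusted p = 0.0454) in the P28 and 3.97 ± 1.25 (SE, with adjusted p = 0.0196) in the P4M clones. The P28 call was lost with no filter (adjusted p = 0.0643) and without Fgfr3-WT replicates 1, 2, 3, 4 or 5 or P28 replicates 1, 2, 3 or 5 (adjusted p = 0.0520 to 0.171), with the log2 fold change down to 2.01 without P28 replicate 2. Without P4M replicate 3 the P4M value was 1.20 (adjusted p = 0.326). On log2(TPM + 1) limma gave 0.76 (adjusted p = 0.196) and 0.77 (adjusted p = 0.215).

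Il18 (ENSMUSG00000039217, chr9:50554827-50581840, plus strand), made as a precursor that caspase-1 cleaves, was lower in the P4M clones than in both other groups. It had 4.07, 12.8, 10.6, 8.17 and 14.5 CPM in the Fgfr3-WT clones. It was 3.89, 5.47, 4.15, 11.5 and 7.04 CPM in the P28 and 1.38, 2.41, 2.17 and 2.33 CPM in the P4M clones. All 4 P4M clones lay below every clone of the other groups, and the P28 clones lay within the Fgfr3-WT range but for replicate 1, just below it. The log2 fold change against the Fgfr3-WT clones was -2.27 ± 0.42 (SE, with adjusted p = 0.000860) in the P4M and -0.64 ± 0.37 (SE, with adjusted p = 0.182) in the P28 clones. The P4M call held in all 14 fits that left out 1 clone, and the P28 difference passed without P28 replicate 4 (-0.99, adjusted p = 0.0494).

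Il1rn (ENSMUSG00000026981, chr2:24336853-24351494, plus strand), the antagonist that blocks the IL-1 receptor, had 0, 0.0383, 0.121, 0 and 0.277 CPM in the Fgfr3-WT clones. It was 0.280, 14.3, 3.46, 0.0806 and 0.102 CPM in the P28 and 0.0923, 0.0455, 0.138 and 0 CPM in the P4M clones. Only P28 replicates 2 and 3 stood clearly above the Fgfr3-WT clones, and P28 replicates 4 and 5 lay within their range. In the edgeR fit, the log2 fold change was 5.41 ± 1.58 (SE, with adjusted p = 0.0160) in the P28 and -0.26 ± 1.70 (SE, with adjusted p = 0.914) in the P4M clones. Without P28 replicate 2, Il1rn fell under the filter, and on the genes tested with all clones its value was 3.50 (adjusted p = 0.0564), so that the call was lost. Without Fgfr3-WT replicate 5, in the same way, it was 6.54 (adjusted p = 0.0158).

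Il1r1 (ENSMUSG00000026072, chr1:40225080-40317257, plus strand), the signalling receptor of IL-1, had 17.2, 69.6, 69.5, 30.8 and 66.2 CPM in the Fgfr3-WT clones. It was 27.7, 12.6, 26.0, 64.7 and 32.6 CPM in the P28 and 27.9, 15.5, 18.0 and 11.6 CPM in the P4M clones. All P4M clones lay below Fgfr3-WT replicates 2 to 5, and Fgfr3-WT replicate 1 lay among them. The log2 fold change was -1.47 ± 0.49 (SE, with adjusted p = 0.0258) in the P4M and -0.63 ± 0.45 (SE, with adjusted p = 0.284) in the P28 clones. The P4M call was lost without Fgfr3-WT replicates 2 or 3 or P4M replicates 2, 3 or 4 (adjusted p = 0.0521 to 0.0756), with no filter on low counts (adjusted p = 0.0511) and with limma on log2(TPM + 1) (adjusted p = 0.0584). The agonists Il1a and Il1b were under the filter, at most 0.121 CPM for Il1a, in an Fgfr3-WT clone, and 0.0398 CPM for Il1b, in a P28 clone.

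Il15 (ENSMUSG00000031712, chr8:82331632-82403222, minus strand), which supports NK cells and memory T cells, was lower in the P4M clones. It had 0.652, 2.91, 0, 5.49 and 1.07 CPM in the Fgfr3-WT clones. It was 0.516, 0.645, 0.894, 0.544 and 0.179 CPM in the P28 and 0.115, 0.114, 0.435 and 0.226 CPM in the P4M clones. Fgfr3-WT replicate 3, with no count, lay below all cKO clones, and the other 4 Fgfr3-WT clones lay above all P4M clones. Its log2 fold change was -3.16 ± 1.04 (SE, with adjusted p = 0.0240) in the P4M and -1.86 ± 0.89 (SE, with adjusted p = 0.116) in the P28 clones. The P4M call was lost without Fgfr3-WT replicate 4 or P4M replicates 1, 2 or 4 (adjusted p = 0.0582 to 0.0679) and with only the groups compared (adjusted p = 0.0576), with -2.36 without Fgfr3-WT replicate 4, and without Fgfr3-WT replicate 3 the P28 difference passed (adjusted p = 0.0190). Tslp, a cytokine of barrier and stromal cells, was 0 to 1.25 CPM in the Fgfr3-WT, 0.205 to 4.51 in the P28 and 0.0455 to 0.158 in the P4M clones, with log2 fold changes of 1.44 (adjusted p = 0.284) and -2.60 (adjusted p = 0.100), of which the latter passed with DESeq2 (adjusted p = 0.0428). Tnf, the inducer of NF-kappa-B, was under the filter, at most 0.130 CPM.

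**Figure D4:**
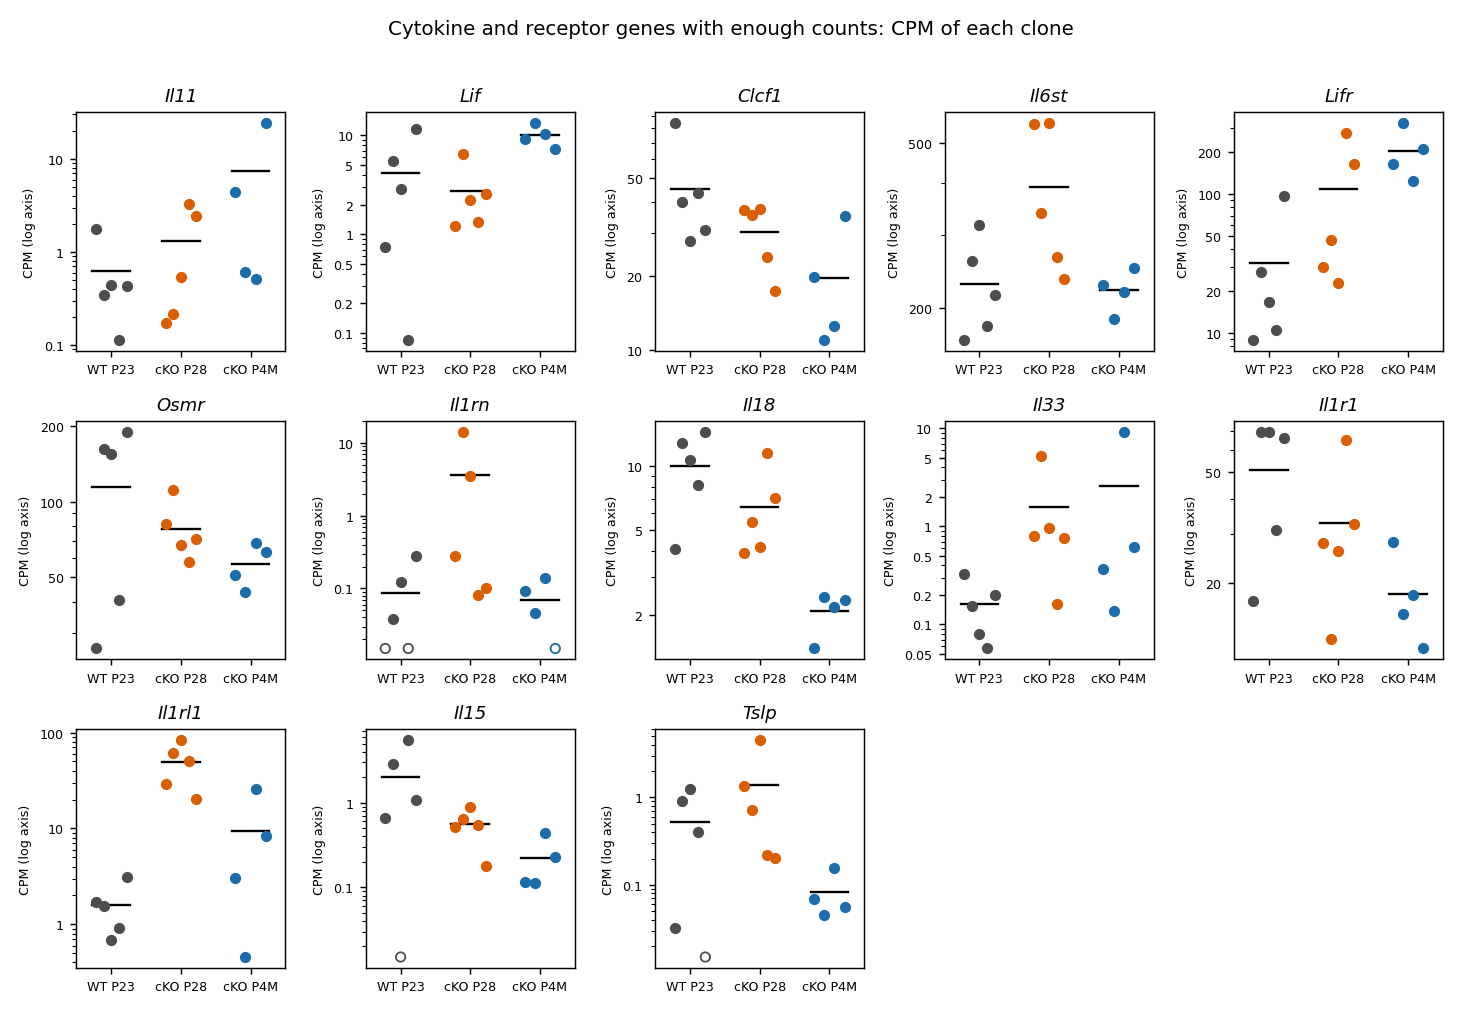
CPM of each clone (points, log axis) and group mean (line) for the 13 cytokine and receptor genes with enough counts, in Fgfr3-WT (grey), P28 (orange) and P4M (blue) clones, with open points for a count of 0. For Il18 the 4 P4M clones lie below all others, and for Il1rl1 the 5 P28 clones lie above all 5 Fgfr3-WT clones.

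Between the P4M and P28 clones, which share a submission but differ in the time since the pulse and partly in passage, 1 of the 22 genes was called, Il18, at a log2 fold change of -1.63 ± 0.41 (SE, with adjusted p = 0.0307). That is 4.55% of the 22, where 7.22% of all genes tested were called, 3.34% higher and 3.88% lower in the P4M clones. The call was lost without P28 replicate 4 or P4M replicates 1, 2, 3 or 4 (adjusted p = 0.0647 to 0.0997). None of the 22 genes was called higher by edgeR, and none had an unadjusted p under 0.05 in that direction, while 6 were lower at that level. DESeq2 and limma also called 0 higher, and DESeq2 called 6 lower and limma 4. The median log2 fold change of the 22 genes was -0.76, beside -0.01 over all genes tested. Ranges did not overlap for Il18, Ccl25, Tslp and Lif, where 19% of all genes tested did not overlap. Ccl25 had a log2 fold change of -0.66 ± 0.19 (SE, with adjusted p = 0.0539) and passed under DESeq2, limma and with only the groups compared. For Tslp it was -4.03 (adjusted p = 0.0680), for Il1rn -5.66 (adjusted p = 0.0609), for Il6st -0.83 (adjusted p = 0.0849) and for Il1rl1 -2.37 (adjusted p = 0.101). With DESeq2 all 4 passed, at adjusted p values of 0.00487, 0.00151, 0.0409 and 0.0197. Tslp also passed with only the groups compared (adjusted p = 0.0323) and without Fgfr3-WT replicate 1 or 5, Il1rn and Il6st without P28 replicate 5, and Il1rl1 with limma (adjusted p = 0.0156) and without P4M replicate 3 (-3.62, adjusted p = 0.0364). Lif passed, higher, with only the groups compared (adjusted p = 0.0323), and Cxcl16 passed, lower, with limma (adjusted p = 0.0311). The intervals of these differences are wide, and a value that missed the threshold does not show that the groups were alike. With no scaling factor, 33.2% of all genes called between the cKO groups were higher in the P4M clones, beside 46.3% with TMM, and with no scaling 2 of the 22 genes were lower.

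Clones of a group differed more in these genes than in the median gene. The median over the 22 genes of the SD of log2 CPM was 1.20 in the Fgfr3-WT, 0.835 in the P28 and 0.765 in the P4M clones, beside 0.515, 0.326 and 0.307 over all genes tested. Whether low counts account for this wider spread was not tested. P4M replicate 3 was the highest P4M clone for 12 of the 22 genes, among them Ccl2, Ccl7, Ccl5, Il33 and Il1rl1, and P4M replicate 2 the lowest for 10. P4M replicate 3 was also unlike the other P4M clones in stromal genes, with 1727 CPM of Col3a1 where they had at most 26.7 CPM, and had the lowest Col1a1 of the cKO clones (7377 CPM). In the P28 group, replicate 3 was highest for 8 genes, including Cxcl10, Ccl2 and Ccl5. Fgfr3-WT replicate 5, the single Fgfr3-WT clone with Col1a2 above 1 CPM, was highest for 9, including Ccl2, Ccl7, Lif and Lifr, and Fgfr3-WT replicate 1 was lowest for 9, including Cx3cl1, Ccl9, Il18 and Il1r1. Whether these clone states bear on the group differences was not tested.

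Compared per length, as TPM deposited by the authors, Il6st, the shared receptor chain, was among the highest of these genes in every group. The median Il6st level was 41.1 TPM in the Fgfr3-WT, 84.6 in the P28 and 51.7 in the P4M clones. In the Fgfr3-WT clones it was next to Osmr (44.0 TPM), Cx3cl1 (32.9), Il18 (26.8) and Clcf1 (24.1), whose ranges over clones overlapped. In the P28 clones Il1rl1 (28.0 TPM), Osmr (25.0), Clcf1 (23.1) and Ccl2 (21.6) came next, with ranges that overlapped each other and lay below that of Il6st. In the P4M clones Lifr (51.0 TPM) stood beside Il6st, and Osmr (17.0), Cx3cl1 (12.5) and Clcf1 (12.1) had lower medians. Cxcl10, the gene with the largest fitted fold change, remained among the low transcripts at a median of 1.42 TPM in the P28 and 0.870 TPM in the P4M clones.

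Receptors for chemokines were mostly at low levels. Of 20 chemokine receptor genes in the count table, 15 stayed below 1 CPM in every clone, including Ccr1, Ccr2, Cxcr3 and Cx3cr1, and 6 were tested. Ackr4, a decoy that takes up chemokines of the CCR7 and CCR9 axes, was 0.0405 to 0.514 CPM in the Fgfr3-WT, 2.95 to 24.5 in the P28 and 14.6 to 35.0 in the P4M clones. Its log2 fold changes were 6.20 ± 0.72 (SE, with adjusted p = 6.64e-05) and 6.62 ± 0.74 (SE, with adjusted p = 4.12e-05), without overlap of either cKO group with the Fgfr3-WT clones. Ccr7, a receptor of lymphocytes and dendritic cells, was also higher in both, with at most 1.78 CPM, and Ccr10 was lower in the P28 clones (-1.22, adjusted p = 0.0360). In the P4M clones 4 of the 6 were called, all higher, where 22.3% of all genes were called higher: Ackr4, Ccr7, Cxcr4 (0.341 to 0.864 CPM in the P4M clones) and Cxcr6 (0.376 to 0.807 CPM). In the P28 clones 3 of the 6 were called, where 38.9% of all genes were. Of 3 further chemokine genes tested, Ccl6, a neighbour of Ccl9 and ligand of CCR1, was lower at log2 fold changes of -6.67 ± 1.24 (SE, with adjusted p = 0.00124) in the P28 and -9.77 ± 1.67 (SE, with adjusted p = 0.000543) in the P4M clones, and Ccl28 was lower in the P4M clones (-3.81, adjusted p = 0.00449). Fgfr3-WT replicate 1 had no Ccl6 count and lay below all P28 clones (0.0596 to 0.201 CPM), while the other Fgfr3-WT clones had 3.13 to 25.6 CPM. Cxcl12, which keeps blood stem cells in the marrow, was 0 to 222 CPM in the Fgfr3-WT clones and 317 to 520.4 CPM in the P28 clones, at a log2 fold change of 2.99 (adjusted p = 0.121), and is named here after its values were seen. The median log2 fold changes of the 3 further chemokines were -1.18 and -3.81, and those of the 6 receptors 1.23 and 3.18.

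Among 14 tested genes for other cytokines and receptor chains, 1 was higher and 4 were lower in the P28 clones, and 2 were higher and 6 lower in the P4M clones, beside the 38.9% and 45.9% called over all genes. Their median log2 fold changes were 0.10 and -0.83. Crlf2, a chain of the TSLP receptor, was lower in both cKO groups, with a log2 fold change of -1.52 ± 0.20 (SE, with adjusted p = 0.000145) in the P28 clones. Il15ra, which presents IL-15, was lower in both groups, at log2 fold changes of -2.04 ± 0.42 (SE, with adjusted p = 0.00205) and -3.83 ± 0.49 (SE, with adjusted p = 9.45e-05), beside the lower Il15 of the P4M clones. Il11ra1, the receptor of IL-11, was lower by a log2 fold change of -1.82 ± 0.42 (SE, with adjusted p = 0.00380) in the P4M clones, where Il11 was higher, and Il18bp, which binds IL-18, by one of -1.57 ± 0.27 (SE, with adjusted p = 0.000517), where Il18 was lower. Il18rap, the accessory chain of the IL-18 receptor, was higher in the P28 clones at a log2 fold change of 2.35 ± 0.62 (SE, with adjusted p = 0.00943), and it was also called higher in the P4M clones. Between the cKO groups 3 of the 14 were lower in the P4M clones, namely Il18bp, Il11ra1 and Il15ra, where 3.88% of all genes tested were called lower.

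Of 20 genes of the NF-kappa-B pathway and the C/EBP factors, all tested, 2 were higher and 4 lower in the P28 clones and 7 higher and 4 lower in the P4M clones, where 38.9% and 45.9% of all genes were called, with median log2 fold changes of 0.03 and 0.05. Rel, which encodes the c-Rel subunit, was higher at a log2 fold change of 1.37 ± 0.21 (SE, with adjusted p = 0.000410) in the P28 clones, and Ikbkg, which encodes the scaffold of the kinase complex, was lower at -1.47 ± 0.31 (SE, with adjusted p = 0.00276). In the P4M clones Cebpb, a factor of Il6 and Cxcl1 transcription, was higher at a log2 fold change of 1.21 ± 0.23 (SE, with adjusted p = 0.00122), Nfkb2 at 1.14 (adjusted p = 0.00323) and Rela at 0.72 (adjusted p = 0.00395). Rel and Nfkb2 were called higher in both cKO groups, and Nfkbib, Chuk and Irak1 were called lower in both. Cebpb was the 1 gene of the 20 that was higher in the P4M than in the P28 clones (1.18, adjusted p = 0.0130), where 3.34% of all genes tested were called higher. Of the genes of the JAK and STAT3 pathway, Jak2, a kinase of cytokine receptors, was higher in the P4M clones (1.14, adjusted p = 0.00260). Of 4 tested inflammasome genes, 1 was higher and 1 lower in each cKO group, beside the 38.9% and 45.9% over all genes. Gsdmd, the pore protein through which IL-1 family cytokines leave cells, was higher in both groups (6.29, adjusted p = 0.00296, and 4.72, adjusted p = 0.0103). It was 10.2 to 16.4 CPM in P28 replicates 1 to 3, but P28 replicate 5 (0.282 CPM) lay below Fgfr3-WT replicate 3 (0.324 CPM). Casp4 was lower in the P28 clones (-2.26, adjusted p = 0.0256) and higher in the P4M than in the P28 clones. Pycard, below 1 CPM in every clone, was lower in the P4M clones.

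Of 17 tested genes for other secreted factors of senescent cells, 3 were higher and 3 lower in each cKO group, beside the same 38.9% and 45.9% over all genes, with median log2 fold changes of 0.26 and -0.04. Tnfrsf11b, which encodes the osteoclast inhibitor osteoprotegerin, was lower at log2 fold changes of -3.96 ± 0.60 (SE, with adjusted p = 0.000325) in the P28 and -3.84 ± 0.65 (SE, with adjusted p = 0.000514) in the P4M clones, and Plau, a protease, was higher at 3.21 (adjusted p = 0.00139) and 2.56 (adjusted p = 0.00444). Csf1, which macrophages and osteoclasts need, was higher in the P4M clones (1.67, adjusted p = 0.00528), and Mmp3 and Lcn2 were lower in both groups. Of the growth arrest genes, Cdkn1a, a target of p53, had log2 fold changes of -2.81 ± 0.40 (SE, with adjusted p = 0.000223) in the P28 and -0.54 ± 0.40 (SE, with adjusted p = 0.281) in the P4M clones, and Cdkn2a had 2.12 ± 0.57 (SE, with adjusted p = 0.0101) and 0.40 ± 0.58 (SE, with adjusted p = 0.603). The proliferation genes Lmnb1, Hmgb2 and Mki67 were higher in both groups, with log2 fold changes of 3.31, 2.06 and 3.62 in the P28 clones. Of the factors most often named for senescent cells, Il6, Il1a, Il1b, Tnf, Cxcl2, Cxcl3 and Cxcl5 were thus under the filter in these libraries, and Cxcl1 was not called.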

How the data were processed

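Bulk RNA-seq libraries of 14 clones had been made with the SMART-Seq v4 kit, which does not mark strand, and sequenced as single reads. The authors aligned the reads to mm10 with TopHat and Bowtie2 and counted unambiguously mapped reads with HTSeq, and these raw counts per gene were deposited; tool versions are not given in the sources used here. The deposited TPM values, made with a program not named there, served for levels per length. Other deposited tables (depth-normalized, rlog, FPKM, expected counts) were not used.

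Genes were filtered with filterByExpr, scaled by TMM and tested with the robust quasi-likelihood F-test of edgeR 4.0.16 (R 4.3.3, limma 3.58.1, DESeq2 1.42.0) on a model with 1 mean per group over all 14 clones. P values were two-sided and adjusted by Benjamini-Hochberg over all 17358 genes, and the calculations were tested on simulated data. The SE was taken as the fold change over the root of F. CPM used the TMM-scaled totals. Positions and exon overlaps came from GENCODE M21, and promoter windows from RefSeq (GRCm38.p6). Alternatives were DESeq2, RLE scaling, no scaling factor, no filter, at least 10 counts in every clone, the compared groups alone, calls with a log2 fold change of 1 or more in size, limma on log2(TPM + 1), and leaving out each clone.

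The genes and the accompanying lists were chosen with earlier results of these data known. Values per clone are given for members called in any comparison with at least 1 CPM in a clone. Of each accompanying list, up to 4 called genes per comparison with the lowest adjusted p and at least 1 CPM were eligible to be named; other names were added after their values were seen. Results for some genes of these lists are not reported here.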

Additional observations from a re-analysis of the deposited data

Results flagged for a closer look

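In 3 of the 66 sets of clones examined, 1 clone lay far from the other clones of its group by Dixon's criterion, and chance gives about 1 in 20. They were Cx3cl1 in P28 replicate 4, the highest of its group at 54.4 CPM, Ccl9 in Fgfr3-WT replicate 1, the lowest at 0.586 CPM, and Ccl25 in Fgfr3-WT replicate 5, the lowest at 3.84 CPM.

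The log2 fold change of Il18 against the Fgfr3-WT clones differed between the P4M and P28 clones by -1.63 (adjusted p = 0.0307, edgeR's quasi-likelihood test), with all 4 P4M clones below all 5 P28 clones.

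Cxcl14, which was under the filter and in no comparison, stood at 34.1 CPM in P28 replicate 4, where no Fgfr3-WT clone exceeded 0.0792 CPM. With no filter it was called in the P28 clones at a log2 fold change of 8.72 (adjusted p = 0.0489, edgeR), a value that rests mainly on this clone.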

How the results depend on the processing

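Over the log2 fold changes of the 22 genes, 924 values came from fits that left out 1 clone, of which 849 kept their direction and side of the threshold, 46 lost the call, 19 gained it and 10 changed sign. The other alternatives gave 417 values, of which 377 were kept, 13 lost the call, 20 gained it and 7 changed sign. Where Il1rn fell under the filter without a clone, the fit was repeated on the genes tested with all clones, a choice made after the data had been seen. No paired analysis was possible because the labels give no replicate numbers that are shared between groups. Values at or below 0.0564 to 0.121 CPM, depending on the library, rest on 3 counts or fewer.

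None of the values that changed sign belonged to a called difference. With limma they were 0.13 for Cxcl1 and 0.0960 for Osmr (P28), 0.13 for Ccl25, 0.29 for Il6st and 0.12 for Il1rn (P4M) and -0.78 for Ccl7 (P4M over P28), and with no filter 0.0383 for Il6st (P4M). Over the fits that left out 1 clone, these values spanned -0.79 to 0.31 for Cxcl1 (P28, highest without Fgfr3-WT replicate 2), -1.20 to 0.27 for Lif (P28, Fgfr3-WT replicate 5), -0.69 (without P4M replicate 3) to 3.99 for Ccl7 (P4M), -0.15 to 0.10 for Il6st (P4M, Fgfr3-WT replicate 3) and -0.85 to 0.87 for Il1rn (P4M, highest without Fgfr3-WT replicate 5, and 0.17 without P4M replicate 4). Between the cKO groups they spanned -2.02 to 1.02 for Ccl7 and -2.05 to 1.97 for Il33, both lowest without P4M replicate 3.

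For P28 over Fgfr3-WT clones, the 1 gene lower became 2 with DESeq2 or the compared groups alone and 0 with limma. The 8 higher became 2 with at least 10 counts in every clone, a filter that removes members low in the Fgfr3-WT clones. Requiring an absolute log2 fold change of 1 left 4040 of 6750 genes called over all genes for P28 and 5149 of 7969 for P4M. For P4M over Fgfr3-WT clones, the 6 higher became 2 with the filter on every clone, 3 with the compared groups alone and 2 with limma. For P4M over P28 clones, all genes called went from 1254 to 2607 with DESeq2 and 3051 with the compared groups alone; the 1 gene lower became 6 with DESeq2, 2 with no scaling, 2 with the filter on every clone, 3 with the compared groups alone and 4 with limma, and 1 gene, Lif, was higher with the compared groups alone. Where not stated, the cause was not tested.

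Leaving out 1 clone gave 5805 to 7253 genes called, 5 to 8 members higher and 0 to 2 lower for P28. For P4M it gave 6799 to 8454 genes, 3 to 7 members higher and 3 to 6 lower. Between the cKO groups it gave 480 genes (without P4M replicate 1) to 2132 (without Fgfr3-WT replicate 1), 0 to 0 members higher and 0 to 3 lower.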
